A study of Mus musculus with 6 samples.

Results

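The genes described here are 28 mouse genes of apoptosis and necroptosis, chosen by symbol from the 32285 genes counted, and their UMIs were added up, within each library, for every cell type of the retina. Single-nucleus RNA sequencing was done on frozen retinas of mice labelled B6.CXB1-Pde6b-rd10/J, which carry the rd10 mutation of the rod phosphodiesterase gene Pde6b and lose their photoreceptors. Eyes were injected intravitreally at P18 with either 20 ng of recombinant IL-27 or saline, and retinas were collected at P20. Replicates 1, 2 and 6 were the 3 saline control libraries, and replicates 4, 5 and 10 the 3 libraries with IL-27. All 6 carried rd10, so no level below comes from a retina without degeneration.

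Apoptosis can start in the mitochondrion or at the cell surface. In the mitochondrial route BH3-only proteins free Bax and Bak to open the outer membrane, cytochrome c leaves and assembles Apaf1 and caspase-9 into the apoptosome, and Bcl-2, Bcl-xL and Mcl-1 hold this back. In the surface route Fas or the TNF receptor gathers Fadd, Tradd and caspase-8, with cFLIP as a brake. When caspase-8 is inactive, Ripk1 and Ripk3 can activate Mlkl, which ruptures the plasma membrane (necroptosis), and both apoptosis and necroptosis have been studied as routes of photoreceptor death.

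The libraries held 8968 to 9965 barcodes and 36678332 to 48260748 UMIs, and 372 barcode sequences occurred in more than 1 library. After filtering and removal of doublets, 52190 nuclei remained, 26125 from saline control and 26065 from IL-27 retinas, and 50878 of them fell into clusters named as 1 of 11 cell types, each name resting on at least 3 marker genes. Xist was high in saline replicate 2 and IL-27 replicate 5 and close to 0 in the other 4 libraries, so each group held both sexes. Sums were made over 47482 nuclei, with 14388 rods, 3130 cones, 5142 Muller glia, 1444 microglia, 9977 bipolar cells (BC), 10251 amacrine cells (AC), 479 horizontal cells (HC), 2093 ganglion cells (RGC), 94 pericytes, 208 endothelial cells and 276 astrocytes. The members and 54 further genes of cell death were kept out of the genes used for clustering. Levels are CPM, the UMIs of a gene relative to all UMIs of the same sum, and differences are log2 values from edgeR. Because intronic reads and gene length affect UMIs of nuclei, levels are compared between cell types and not between genes. In a sum over nuclei, fewer UMIs of a gene in each nucleus and fewer nuclei that carry it cannot be told apart. Depth differed between types, from 229967 UMIs in pericytes and 558248 in endothelial cells to 64127211 in AC. In the shallowest library of each type 1 UMI was worth 35.8 CPM in pericytes, 15.3 CPM in endothelial cells, 2.82 CPM in microglia, 0.413 CPM in rods and 0.311 CPM in Muller glia. Counting error alone is therefore large for members of low level outside the larger types.

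Across the 8 types other than astrocytes, endothelial cells and pericytes, microglia had the highest mean of 20 of the 28 members, and for 12 of these all 6 microglial libraries lay above all 6 libraries of the next type. Rods were highest for Bbc3, Cycs and Diablo, Muller glia for Bcl2, Casp6 and Fas, and cones for Xiap and Trp53, and in these the highest and the next type overlapped. HC were the lowest type for 12 members. With the 3 small types included, microglia were highest for 14 members, and for only 2 of these without overlap with the next type. Endothelial cells were then highest for 5 members and pericytes for 3. The share of all genes highest in each type was not computed, so these counts have no background beside them.

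**Figure D1:**
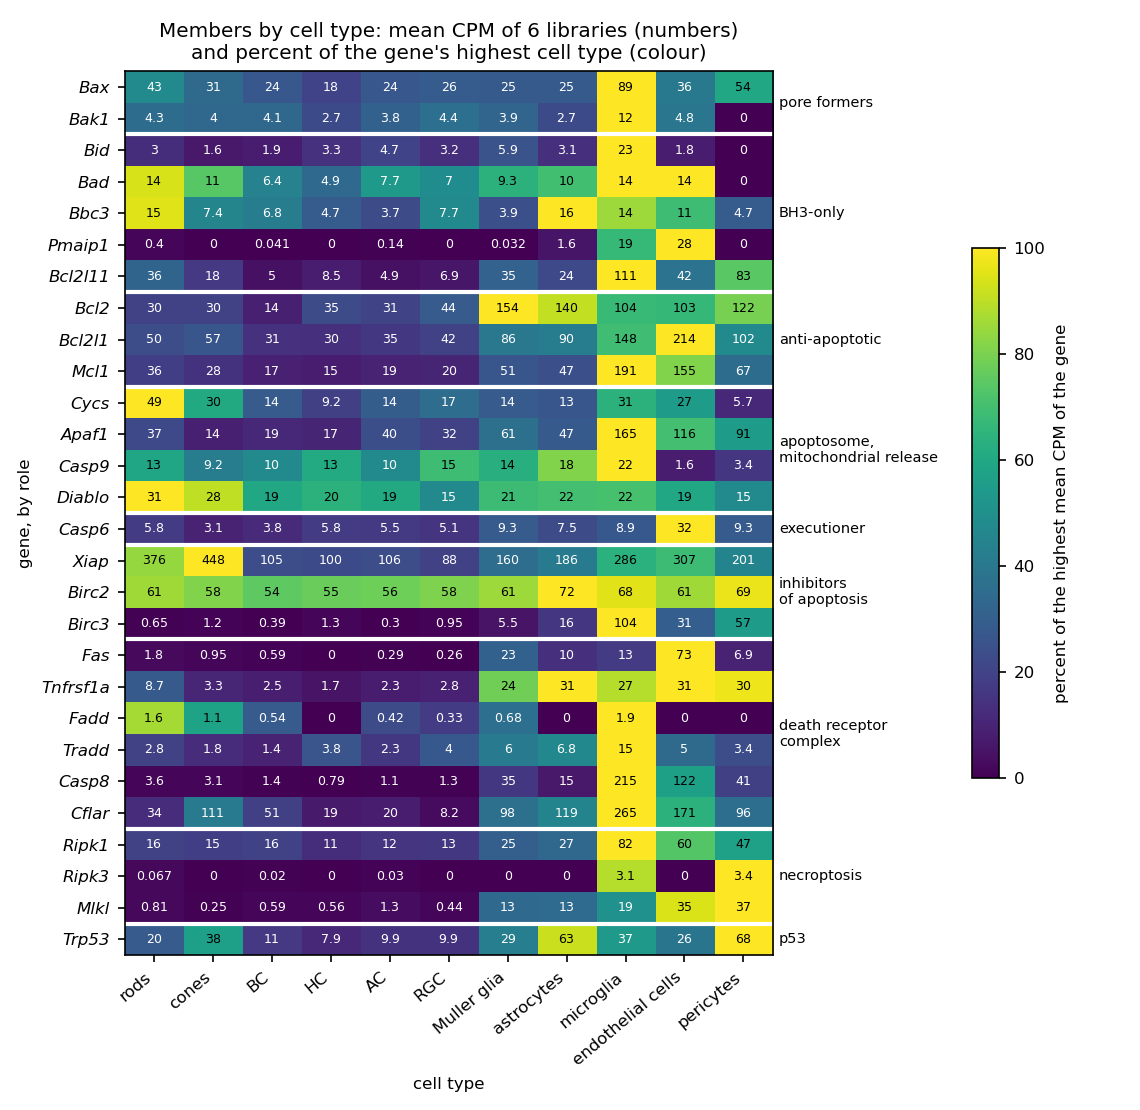
Heat map of the 28 members (rows, by role) in 11 cell types (columns). Numbers are the mean CPM over 6 libraries and colours give the percent of the gene's highest type. The column of microglia holds the highest colour for 14 of the 28 rows, while Xiap is brightest in cones and Bcl2 in Muller glia.

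In a single edgeR fit with library as a block, each main type was compared with the mean of the others. The fit over all 11 types includes pericytes and endothelial cells with few counts, so it was repeated over the 8 larger types, and a member is called here when it passed an adjusted p of 0.05 in the same direction in both. Fadd and Ripk3 were below the filter, leaving 26 members. In microglia 23 members were higher and 0 lower over 11 types (33.7% and 22.6% of 15571 genes), 21 were higher and 2 lower over 8 types (29.1% and 38.7% of 16870 genes), and 21 and 0 were called in both (29.4% and 22.1% of 15323 genes). The 2 lower over 8 types were Birc2 and Diablo, and Birc2 is also among the members with the highest mean CPM in microglia. The fit scales the libraries by TMM and CPM does not, and the part of this scaling in the unlike directions was not tested. Over 8 types Mlkl and Pmaip1 passed the filter only through microglia, so their calls there were fixed by the filter, and 19 of the 24 others were called higher in both. Mlkl is also counted below as higher in Muller glia and lower in cones, and it was tested there over 8 types only because of microglia. The median difference of the members was 1.71, against 0.05 for all genes. In Muller glia 20 were higher and 1 lower (39.6% and 16.3% of genes), 17 and 3 over 8 types (36.1% and 34.4%), and 17 and 1 in both (34.5% and 15.9%), with a median of 0.72 against 0.15. In rods 7 were higher and 12 lower (36.9% and 24.7%), 9 and 10 over 8 types (37.7% and 33.1%), and 7 and 7 in both (34.2% and 22.5%), with a median of -0.31 against 0.09. In cones 6 were higher and 11 lower (34.0% and 20.1%), 5 and 11 over 8 types (28.8% and 30.2%), and 5 and 8 in both (28% and 18.4%), with a median of -0.39 against 0.09. The share of members called higher in both fits was thus above that of all genes in microglia and Muller glia. In rods and cones it was below that of all genes by few members only, so nothing is read from it there. Scaling by library totals moved the median of all genes from 0.09 to 0.32 in rods, from 0.05 to 0.28 in microglia and from 0.15 to -0.08 in Muller glia, and the share of all calls that were higher from 59.9% to 72.0%, from 59.8% to 69.9% and from 70.9% to 50.3%. With DESeq2 size factors that share was 58.8% in Muller glia. Under these scalings, over 11 and over 8 types, the members called in both fits kept their call and direction except for Birc2 and Ripk1 in Muller glia, Bbc3 in microglia, Mcl1 in cones, and Birc2, Bcl2l1 and Apaf1 in rods.

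**Figure D2:**
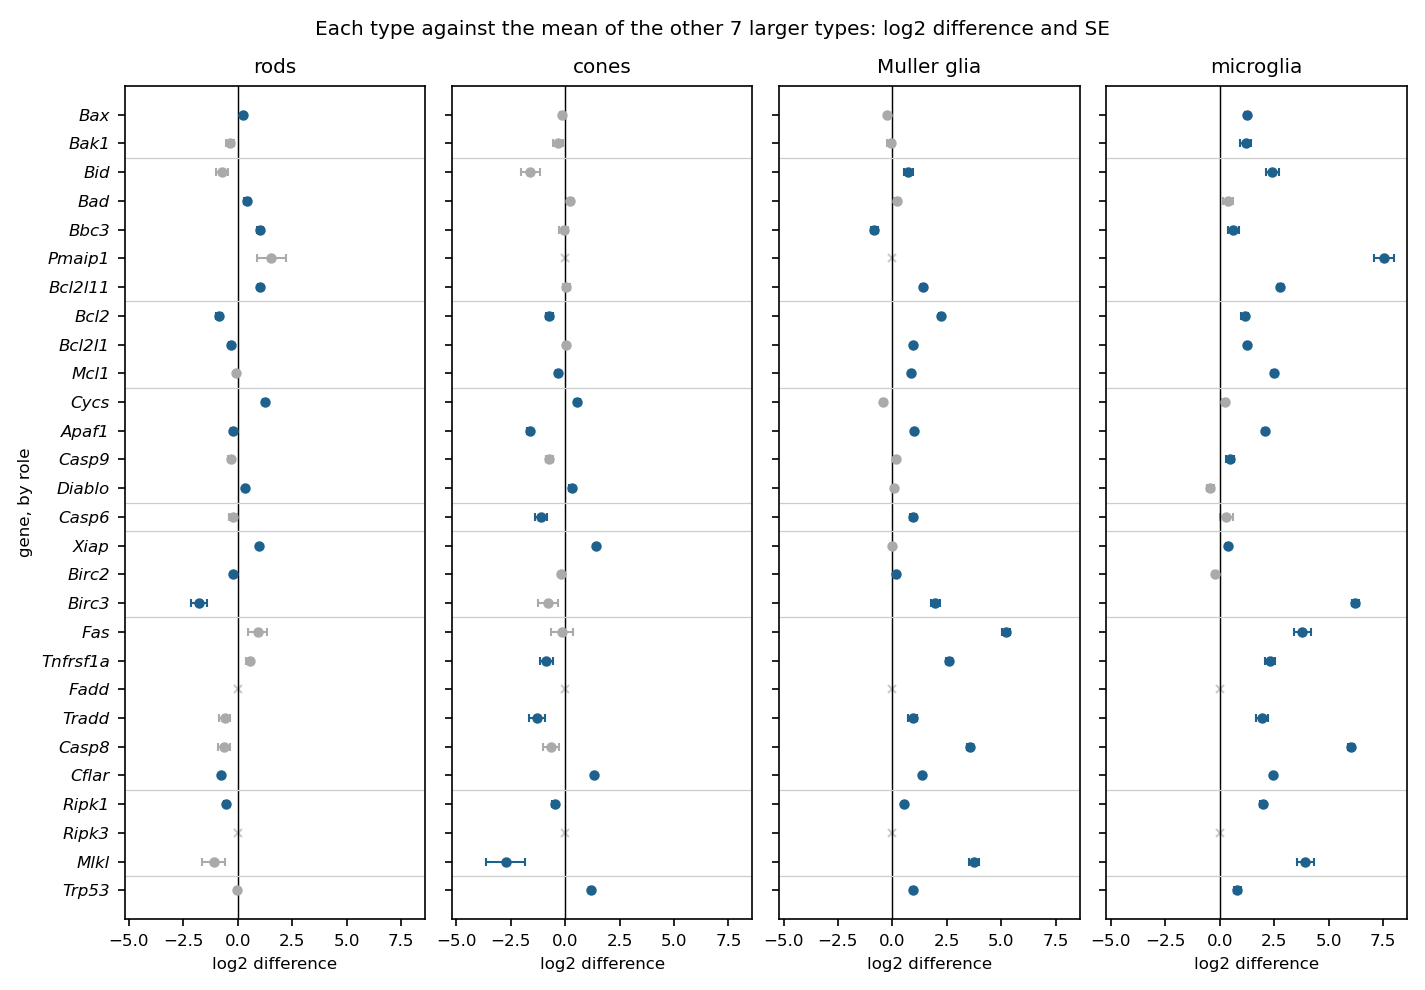
Difference of each member between a cell type and the mean of the other 7 larger types (log2, edgeR, bars are SE), for rods, cones, Muller glia and microglia. Blue points passed an adjusted p of 0.05 in both the 8-type and the 11-type fit, grey points did not, and crosses at 0 mark genes below the filter or with an SE of 2 or more; most blue points of microglia and Muller glia lie right of 0.

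Of the death receptor complex, Casp8, Cflar, Fas, Tnfrsf1a and Tradd were called higher in both Muller glia and microglia, and Fadd was below the filter. Casp8, the initiator caspase of this route, reached 179, 216 and 258 CPM as the lowest, median and highest microglial library (mean 215 ± 29.3, SD, n = 6), 34.9 ± 6.80 CPM in Muller glia and 122 ± 40.7 CPM in endothelial cells. It was at 0.787 to 3.58 CPM in rods, cones, BC, AC, HC and RGC. Every microglial library lay above every Muller library, and the contrasts were 5.04 (SE 0.13) in microglia and 2.60 (SE 0.13) in Muller glia (edgeR adjusted p 1.35e-49 and 1.31e-31). Fas, the receptor of Fas ligand, was at 16.3, 22.1 and 29.5 CPM as the lowest, median and highest Muller library (mean 22.5 ± 5.01), at 12.9 ± 7.47 CPM in microglia and at 72.7 ± 41.1 CPM in endothelial cells, with 0 UMIs in HC, where the limit that a count of 0 allows was 0.605 CPM. Its fitted contrast was 3.87 (SE 0.18) in Muller glia and 2.57 (SE 0.36) in microglia, or 5.22 and 3.80 over 8 types, and it depends on how the fit treats the 0 UMIs of HC. The Muller and microglial ranges of Fas overlapped. Tnfrsf1a, a TNF receptor, was at 27.4 ± 10.0 CPM in microglia, at 24.1 ± 6.81 CPM in Muller glia and at 1.67 to 8.73 CPM in photoreceptors and neurons. Cflar, which encodes the caspase-8 brake cFLIP, was highest in microglia, at 243, 267 and 283 CPM (lowest, median and highest), and was also called higher in Muller glia (97.9 ± 4.21 CPM) and in cones (111 ± 8.20 CPM, difference 1.0, SE 0.08), but lower in rods (34.1 ± 5.96 CPM, difference -1.11, SE 0.09). Among the other neurons it was at 50.5 CPM in BC and at 8.21 to 20.4 CPM in RGC, HC and AC, the latter below rods. The adaptor Tradd was at 14.5 ± 8.01 CPM in microglia and 5.97 ± 1.16 CPM in Muller glia, called higher in both, and at 1.82 ± 1.41 CPM in cones, called lower. BC, AC, HC and RGC were at 1.43 to 3.99 CPM. The adaptor Fadd had 7 UMIs in microglia, 16 in Muller glia, 30 in rods and 0 in HC, astrocytes, endothelial cells and pericytes.

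Of the necroptosis genes, Ripk3, the kinase that activates Mlkl, was hardly seen. It had 10 UMIs in microglia, 2 in AC, 1 each in rods, BC and pericytes and 0 in the other 6 types. Microglial libraries had 3, 0 and 3 UMIs in saline control and 0, 3 and 1 in IL-27 retinas, and Muller glia had 0 UMIs, which allows up to 0.126 CPM. This limit covers counting error only. Mlkl, the membrane-rupturing effector, was at 8.95, 18.0 and 29.6 CPM as the lowest, median and highest microglial library (mean 18.9 ± 7.18) and at 12.7 ± 8.77 CPM in Muller glia, at 35.2 ± 19.3 CPM in endothelial cells, and at 0.246 to 1.29 CPM in photoreceptors and neurons. The difference was 2.71 (SE 0.34) in microglia and 2.46 (SE 0.22) in Muller glia (3.74 over 8 types). In cones, where it had 2 UMIs in all, it was called lower. Over 8 types it passed the filter only through microglia, where it is high, so nothing is read from the cone call. Ripk1, the kinase shared by both routes, was at 82.4 ± 7.23 CPM in microglia and 24.8 ± 2.62 CPM in Muller glia, called higher in both (in Muller glia 0.31, SE 0.09, but 0.07 and an edgeR adjusted p of 0.579 with library totals). It was at 16.0 ± 2.66 CPM in rods and 15.3 ± 2.81 CPM in cones, called lower in both. The other neurons were at 10.7 CPM (HC) to 16.2 CPM (BC), so this call is against a mean that includes glia and not against neurons.

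Microglial and endothelial markers were also read in the Muller sums. The 10 microglial markers summed to 205 to 224 CPM in saline control and 210 to 251 CPM in IL-27 libraries, and 144 CPM of this was P2ry12. The other 9 stood at 0.0943 to 3.25% of their microglial level. Casp8 in Muller glia stood at 16.2% of its microglial level, Mlkl at 67.2%, Ripk1 at 30.1% and Fas at 175%. Birc3 stood at 5.31%, and the part of microglial RNA in these values was not tested. Among 8 endothelial markers, Flt1 (1254 CPM) and Kdr (545 CPM) made up most of the sum in Muller glia, and the other 6 stood at 0.0428 to 1.53% of their endothelial level.

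The promoters of Fas and Mlkl, both high in glia and scarce in neurons, are shown because IL-27 signals through STAT factors, which bind GAS elements. In GENCODE M21 (GRCm38) Fas lies at chr19:34290666-34327772 on the plus strand and Mlkl at chr8:111311797-111338177 on the minus strand. The 250 bases before the RefSeq start (GRCm38.p6), chr19:34290409-34290658 for Fas and chr8:111338206-111338455 for Mlkl, lie outside both gene models and read as follows, with GAS motifs (TTCNNNGAA) in capitals.
Fas: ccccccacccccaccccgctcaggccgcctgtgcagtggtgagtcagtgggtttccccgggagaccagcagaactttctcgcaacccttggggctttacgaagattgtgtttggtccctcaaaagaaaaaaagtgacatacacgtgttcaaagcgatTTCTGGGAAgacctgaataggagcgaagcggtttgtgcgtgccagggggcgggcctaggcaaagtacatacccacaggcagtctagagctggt
Mlkl: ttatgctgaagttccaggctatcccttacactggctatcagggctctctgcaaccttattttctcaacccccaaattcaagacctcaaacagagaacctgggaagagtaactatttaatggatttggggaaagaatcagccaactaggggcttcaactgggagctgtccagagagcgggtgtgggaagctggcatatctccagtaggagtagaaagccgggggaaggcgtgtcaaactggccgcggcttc
Fas held 1 GAS motif and Mlkl none. A GAS motif was found on either strand before at least 1 start of 3 of the 26 members with an entry, Fas, Tnfrsf1a and Ripk1, and in 7.02% of 32851 promoters of the same length. The interferon response core GAAANNGAAA was found in 0 members (2.98% of promoters), the PU.1 motif GAGGAAGT in 2, Bak1 and Bad (2.44%), and the kappaB motif in 2, Bbc3 and Bcl2l1 (3.90%). A member with several starts was counted if any of them held the motif, whereas the percentages count single promoters. The member counts are therefore not like for like with these percentages, and no enrichment is read from them. A match describes letters in this window and is not a site.

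The inhibitors of apoptosis, which bind caspases or act on TNF receptor signalling, had unlike orders of cell types. Birc3, a ubiquitin ligase of TNF receptor signalling, was at 80.0, 100.5 and 125 CPM in microglia (lowest, median and highest library), and its mean was 104 ± 15.7 CPM there against 5.50 ± 1.13 CPM in Muller glia and 0.295 to 1.25 CPM in photoreceptors and neurons. Its difference was 5.0 (SE 0.16) in microglia, 0.82 (SE 0.19) in Muller glia (1.96 over 8 types) and -2.82 (SE 0.35) in rods (-1.78 over 8 types). Rods held 13 UMIs of Birc3, at 0.650 CPM, with BC at 0.394 CPM and AC at 0.295 CPM below them. The rod call is against a mean that includes glia and not against neurons. Xiap, the X-linked caspase inhibitor, had another order, with 448 ± 101 CPM in cones, 376 ± 68.9 CPM in rods, 286 ± 42.5 CPM in microglia, 160.5 ± 4.81 CPM in Muller glia and 87.7 to 106 CPM in BC, AC, HC and RGC. It was called higher in cones (1.40, SE 0.06), rods (0.88, SE 0.06) and microglia (0.48, SE 0.09), and cone and rod libraries overlapped. In the 2 libraries with high Xist its mean was 383 CPM in rods, 419 CPM in cones and 327 CPM in microglia, against 373, 462 and 265 CPM in the others. Birc2, the nearest relative of Birc3, was at 68.5 ± 12.6 CPM in microglia, 61.4 ± 8.73 CPM in rods, 61.2 ± 5.29 CPM in Muller glia and 53.9 to 58.1 CPM in the other larger types. Its fitted difference was 0.25 (SE 0.07) in Muller glia and -0.22 (SE 0.07) in rods, but with library totals it was 0.01 (adjusted p 0.976) and 0.0037 (adjusted p 1.0), so no direction is given for it.

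All 3 anti-apoptotic members of the Bcl-2 family were called higher in both Muller glia and microglia. Bcl2 was at 154 ± 9.31 CPM in Muller glia, with 104 ± 73.8 CPM in microglia and, among neurons, 30.1 ± 5.65 CPM in rods, 30.3 ± 10.2 CPM in cones and 13.8 ± 1.38 CPM in BC. AC were at 31.4 CPM, HC at 34.9 CPM and RGC at 44.2 CPM. The Muller difference was 1.85 (SE 0.09), and the rod and cone differences were -1.20 (SE 0.14) and -0.97 (SE 0.17). Mcl1, which restrains Bak and Bim, reached 163, 191 and 216 CPM in microglia (lowest, median and highest), 51.2 ± 8.68 CPM in Muller glia and 28.1 ± 5.67 CPM in cones. In cones it was called lower (-0.55, SE 0.11, with -0.32 over 8 types, or -0.17 with library totals and an edgeR adjusted p of 0.132), although HC, BC, AC and RGC had lower means, of 15.4 to 19.8 CPM. Bcl2l1, the Bcl-xL gene, was at 148 ± 11.7 CPM in microglia, 86.0 ± 12.4 CPM in Muller glia, 57.2 ± 9.13 CPM in cones and 50.3 ± 3.69 CPM in rods. It was called higher in the glial types and lower in rods (-0.64, SE 0.07, with -0.32 over 8 types, or -0.03 with library totals and an edgeR adjusted p of 0.653). The mean of HC, BC, AC and RGC ran from 29.6 to 42.2 CPM, below that of rods. For all 3 genes the lower calls are against a mean that includes glia.

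Both pore formers and, of the BH3-only genes, Bid, Bbc3 and Bcl2l11 were called higher in microglia, Bad was not, and Pmaip1 passed the filter over 8 types only through microglia. Bax, a pore former, was at 89.4 ± 10.8 CPM in microglia against 42.6 ± 4.29 CPM in rods and 17.9 to 31.0 CPM in the other larger types, and was called higher in microglia (1.36, SE 0.11) and rods (0.20, SE 0.09). Bak1, the other pore former, was at 12.1 ± 5.97 CPM in microglia and at 2.73 to 4.43 CPM in the other larger types (difference 2.01, SE 0.38; 1.19 over 8 types). Bcl2l11, which encodes the BH3-only protein Bim, had 79.0, 106 and 143 CPM as the lowest, median and highest microglial library. It was at 36 ± 2.78 CPM in rods, 35.1 ± 3.45 CPM in Muller glia and 4.91 to 18.3 CPM in cones and other neurons, and was called higher in microglia, Muller glia and rods (0.61, SE 0.10, in rods; 1.04 over 8 types). Bid, which caspase-8 cleaves to reach the mitochondrion, was at 8.95, 24.2 and 36 CPM in microglia (lowest, median and highest) and at 1.6 to 5.92 CPM in the other larger types (difference 3.31, SE 0.38). Pmaip1, the Noxa gene, had 65 UMIs in microglia and 15 in endothelial cells, against 7 in rods, 9 in AC, 2 in BC and 1 in Muller glia, with 6.49, 18.2 and 31.2 CPM as the lowest, median and highest microglial library, and 0 UMIs in cones, HC and RGC. Bbc3, the Puma gene, was called higher in rods (15.4 ± 2.74 CPM, difference 0.93, SE 0.17) and microglia (13.8 ± 6.38 CPM, difference 0.71, SE 0.29, or 0.57 and an edgeR adjusted p of 0.0849 with DESeq2 size factors) and lower in Muller glia (3.93 ± 0.917 CPM, difference -0.76, SE 0.29). Bad was at 13.6 ± 3.02 CPM in rods and 14.4 ± 4.93 CPM in microglia, and only the rod difference was called in both fits (1.07, SE 0.32; 0.43 over 8 types).

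Among genes of the apoptosome and of proteins that leave the mitochondrion, Cycs and Diablo were higher in photoreceptors. Cycs, cytochrome c, was at 48.9 ± 7.56 CPM in rods and 29.6 ± 5.43 CPM in cones, with differences of 1.44 (SE 0.12) and 0.89 (SE 0.16; 0.56 over 8 types), while AC were at 14.5 ± 3.27 CPM and Muller glia at 14 ± 2.56 CPM. Diablo, an antagonist of inhibitors of apoptosis, was at 31.2 ± 5.05 CPM in rods and 28.3 ± 5.31 CPM in cones, with differences of 0.47 (SE 0.11) and 0.53 (SE 0.13; 0.31 over 8 types). Apaf1, the apoptosome scaffold, had another order, at 165 ± 13.3 CPM in microglia, 61.0 ± 3.95 CPM in Muller glia, 36.8 ± 7.06 CPM in rods and 14.3 ± 3.42 CPM in cones, with a cone difference of -1.76 (SE 0.13). AC were at 39.6 CPM, RGC at 32.3 CPM, BC at 19.3 CPM and HC at 16.9 CPM, so rods were not low among neurons. The rod difference, called lower, was -0.51, or -0.23 over 8 types and 0.06 over 8 types with library totals. Casp9, the apoptosome caspase, was at 21.8 ± 8.96 CPM in microglia and 9.23 to 15 CPM in the other larger types, and its microglial difference was 1.10 (SE 0.24; 0.48 over 8 types). Casp6, an executioner caspase, was at 9.29 ± 1.30 CPM in Muller glia and 3.14 ± 1.30 CPM in cones, where it was called lower (-1.26, SE 0.29). Trp53, the p53 gene, was at 38.4 ± 5.86 CPM in cones, 36.7 ± 6.51 CPM in microglia, 29.1 ± 3.42 CPM in Muller glia and 19.7 ± 3.75 CPM in rods, and was called higher in the first 3 of these.

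The further genes of cell death were read in the same fits. Of 48 that passed the filter, 26 were higher and 4 lower in microglia in both fits, 16 and 9 in Muller glia, 14 and 12 in rods, and 11 and 13 in cones. Over all genes the shares called in both fits were 29.4% higher and 22.1% lower in microglia, 34.5% and 15.9% in Muller glia, 34.2% and 22.5% in rods and 28% and 18.4% in cones, so that in Muller glia and rods the further genes lay near the background. Those with the smallest p in rods were Atf4 (1.69, SE 0.06), a transcription factor of the integrated stress response, Tnfaip3 (2.91, SE 0.12), the NF-kappaB inhibitor A20, and Trib3 (3.46, SE 0.20), an ATF4 target. In cones they included Gsdme (4.29, SE 0.05), a pore-forming gasdermin, and the death receptor Tnfrsf21 (-2.86, SE 0.25). In Muller glia they were Tnfrsf21 (3.73, SE 0.07), the RNA sensor Tlr3 (2.61, SE 0.09) and the inflammatory-type caspase Casp12 (2.77, SE 0.23; 4.81 over 8 types), and in microglia the TNF receptor Tnfrsf1b (6.04, SE 0.15), the anti-apoptotic Bcl2a1b (6.66, SE 0.19) and Casp4 (5.89, SE 0.25).

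No member was called between IL-27 and saline control in any cell type. There were 167 tests of a member in a type that passed the filter on low counts, 73 with a higher and 94 with a lower value after IL-27, and 0 had an edgeR adjusted p under 0.05. An unadjusted p under 0.05 was found in 5 of them, and in 4.1% of the 105710 tests over all genes. With DESeq2, 0 of 290 tests were called and 1 had an unadjusted p under 0.05, for which no share over all genes is given. Calls were rare among all genes too, at 0.00754% of genes in rods, 0.0286% in Muller glia, 0.00662% in BC, 0.00603% in AC, 0.502% in pericytes, where no member was tested, and 0.0% in cones, microglia, HC, RGC, astrocytes and endothelial cells. The labels do not say whether the 3 libraries of a group came from separate animals, so p-values measure the spread between these libraries.

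The median log2FC of the members tested lay close to that of all genes. It was -0.02 over 20 members in rods (13 lower; all genes 0.0024), -0.07 over 16 in cones (10 lower; 0.0042), 0.04 over 25 in Muller glia (10 lower; 0.0035) and 0.06 over 19 in microglia (7 lower; -0.0026). In the other types with a test it ran from -0.21 over 7 members in endothelial cells to 0.06 over 10 in HC. The 95% interval of a member was wide, with a median width of 0.75 in rods, 0.90 in cones, 0.77 in Muller glia and 0.95 in microglia on the log2 scale, so small differences could not be seen with 3 libraries a group. The smallest unadjusted p was 0.0777 in rods, for Xiap (log2FC -0.28), which was at 394, 406 and 440 CPM in saline control and at 412, 360 and 246 CPM with IL-27, with IL-27 replicate 10 lowest. It was 0.169 in microglia, for Mcl1 (log2FC -0.24), where the 3 IL-27 libraries lay below the 3 saline libraries. In rods 3.4% of all genes, in cones 3.61% and in microglia 3.02% had an unadjusted p under 0.05, and 0 members did.

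**Figure D3:**
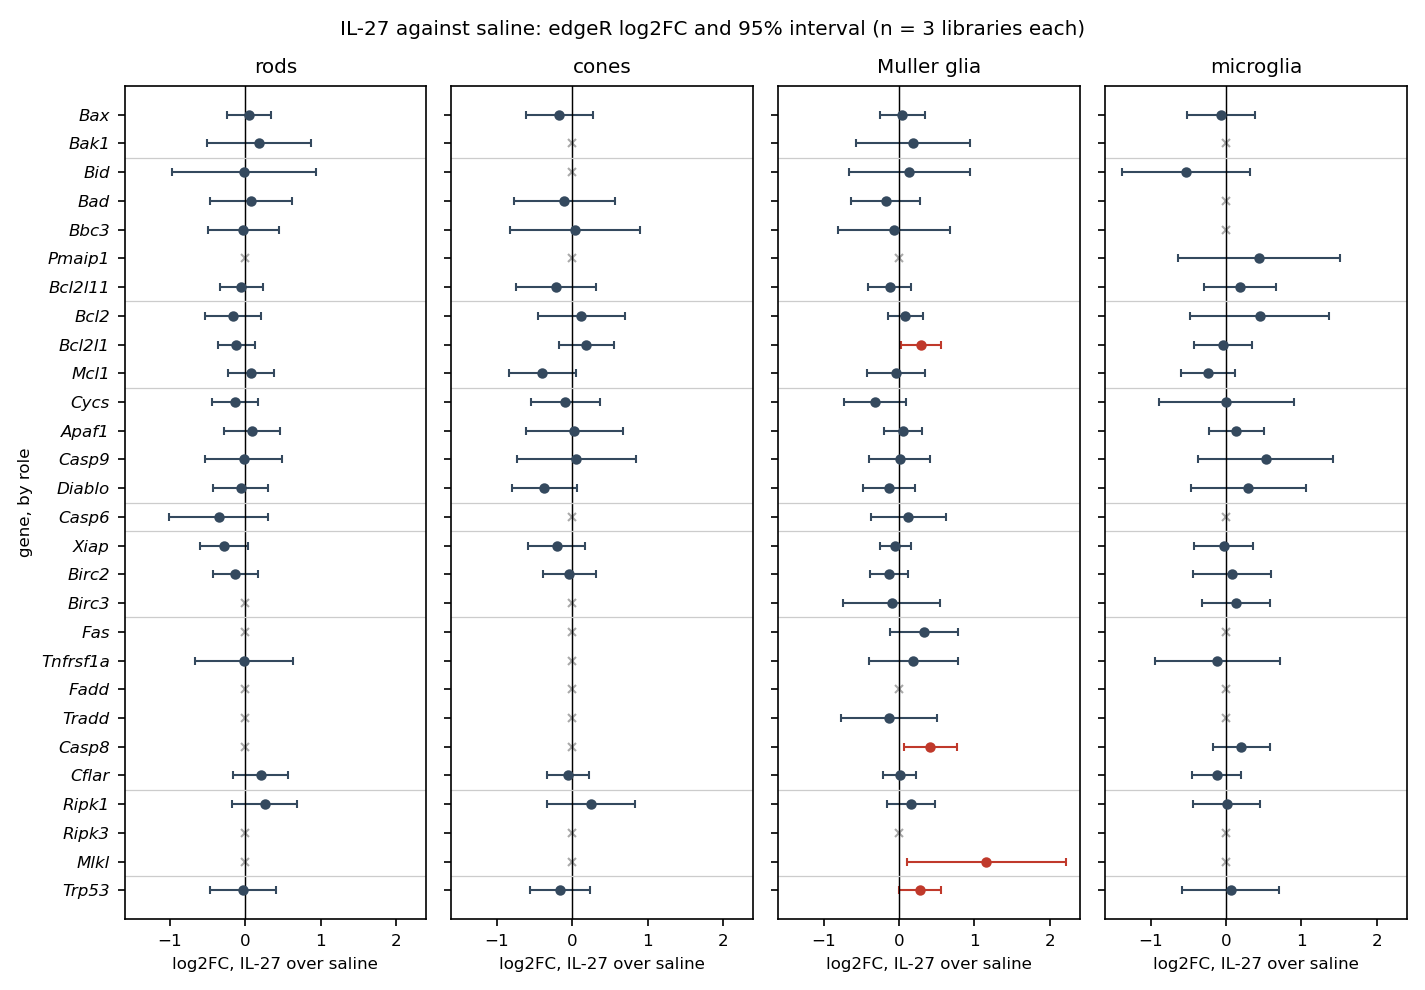
Log2FC of IL-27 over saline for each member, with its 95% interval from edgeR (n = 3 libraries in each treatment), in a panel for each of the 4 main types. Red points have an unadjusted p under 0.05, which 4 members did in Muller glia, and crosses at 0 mark members below the filter.

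In Muller glia 4 of 25 members had an unadjusted p under 0.05 (9.04% of all genes), all of them higher with IL-27, and none was called. Casp8 was at 25.3, 37.4 and 27.8 CPM in saline replicates 1, 2 and 6 and at 36.3, 41.7 and 40.7 CPM in IL-27 replicates 4, 5 and 10. The groups overlapped through saline replicate 2, and the log2FC was 0.42 (SE 0.16, edgeR p 0.0268, adjusted p 0.474). Mlkl was at 10.9, 9.45 and 2.73 CPM in saline control and at 8.20, 16.9 and 28 CPM in IL-27 libraries. IL-27 replicate 4 lay among the saline values, and the log2FC was 1.16 (SE 0.47, edgeR p 0.0340, adjusted p 0.498), or 0.71 without IL-27 replicate 10.

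Bcl2l1 was at 70.8, 79.4 and 84.0 CPM in saline control and 80.8, 95.6 and 105 CPM in IL-27 Muller glia, with overlap and a log2FC of 0.29 (SE 0.12, edgeR p 0.0367, adjusted p 0.507). Trp53 was at 25.9, 27.3 and 26.5 CPM in saline control and 28.4, 33.6 and 33.3 CPM in IL-27 Muller glia. Each IL-27 library lay above each saline library, with a log2FC of 0.28 (SE 0.12, edgeR p 0.0468, adjusted p 0.540).

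Among the nuclei named Muller glia, a cluster of 664 nuclei stood apart. Saline replicates 1, 2 and 6 gave 229, 221 and 99 of them and IL-27 replicates 4, 5 and 10 gave 13, 5 and 97, so the split did not follow treatment in every library. Of these nuclei 661 lay in a cluster that was named from 6 Muller markers, with a mean marker score of 1.25 against 4.83 in the main Muller cluster, and whose top 10 genes, led by Fbln1, Slc6a13 and Fam129a, held no Muller marker. Without the 664 nuclei the Muller level of the 25 members with at least 50 UMIs was 0.877 (Cycs) to 1.08 (Mlkl) times the level with them. The cluster stood at 19.0 CPM against 36 CPM for Casp8, 3.37 against 13.2 CPM for Mlkl, 66.6 against 86.5 CPM for Bcl2l1 and 21.5 against 29.6 CPM for Trp53. Without it, the log2FC of the 4 members was 0.33, 1.0, 0.21 and 0.24 in the same order, and 1 of the 25 members tested, Mlkl, had an unadjusted p under 0.05 (edgeR p 0.0417, adjusted p 0.960). The share of all genes at that unadjusted p is not given for this fit. In the Muller sums, 9 microglial markers other than P2ry12 added up to 70.1 to 82.9 CPM in saline control and 70.9 to 90.6 CPM with IL-27. The 6 endothelial markers other than Flt1 and Kdr added up to 10.3 to 14.1 CPM in saline control and 15.9 to 18.2 CPM with IL-27, so that the groups did not overlap, and endothelial cells also held more Casp8 and Mlkl per UMI than Muller glia. Cone markers summed to 537 to 572 CPM in saline control and 657 to 757 CPM with IL-27 in the Muller sums (6 of 8 higher in mean), and astrocyte markers to 90.3 to 93.0 CPM and 93.1 to 135 CPM (5 of 5 higher). Summed markers of BC (682 to 693 against 615 to 660 CPM) and RGC (114 to 124 against 80.3 to 104 CPM) were lower with IL-27 without overlap, as were those of AC (means 257 against 245 CPM). Single genes were split, with 5 of 11 BC, 4 of 9 RGC and 4 of 9 AC markers higher in mean with IL-27. Trp53 stood at 62.7 CPM in astrocytes and 38.4 CPM in cones, above its level in Muller glia. The part of RNA from these cells in the differences was not tested.

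**Figure D4:**
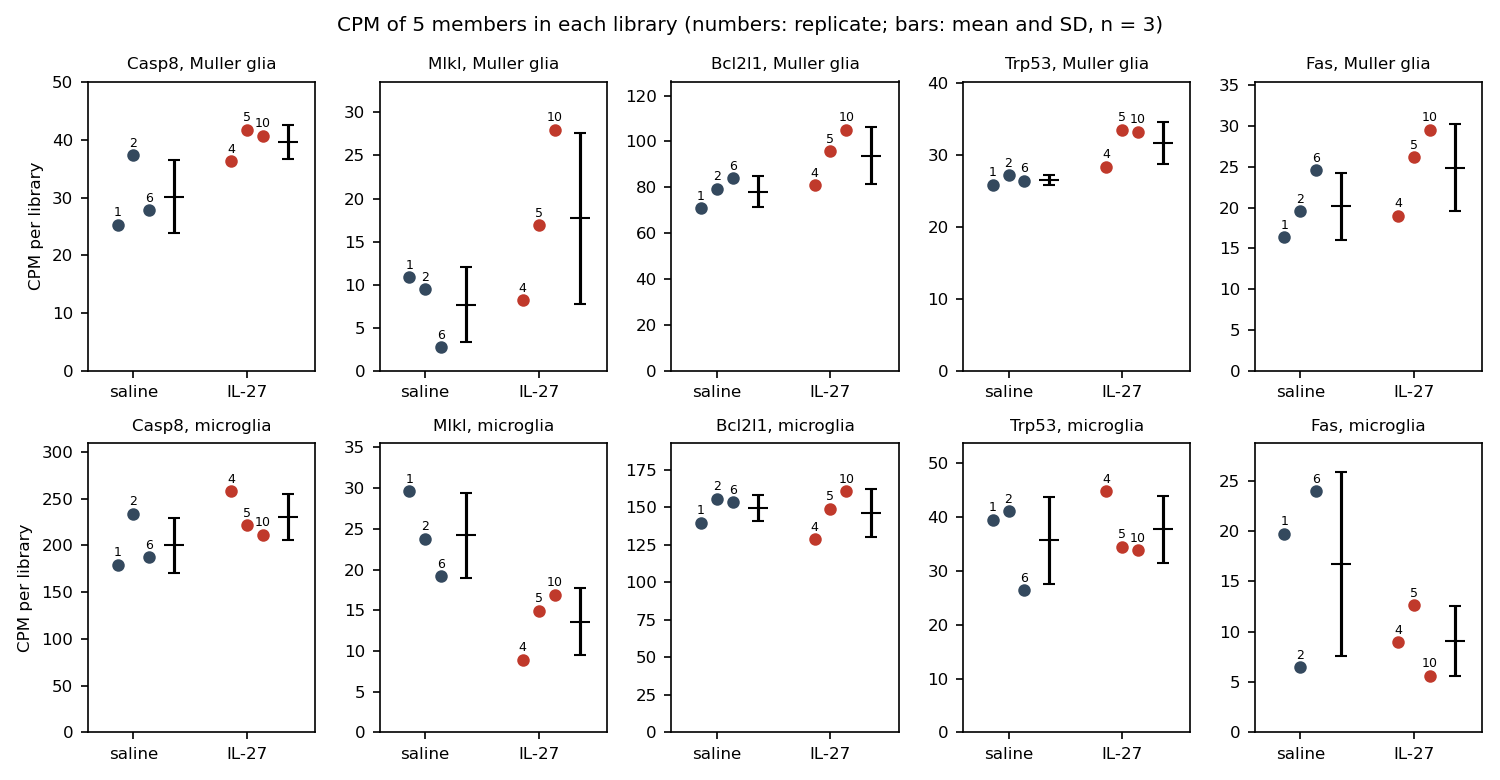
CPM of Casp8, Mlkl, Bcl2l1, Trp53 and Fas in each library, in Muller glia (top) and microglia (bottom), saline in grey and IL-27 in red, with replicate numbers and mean and SD (n = 3). Mlkl lies above all saline values in 2 of 3 IL-27 libraries of Muller glia and lies below all saline values in the 3 IL-27 libraries of microglia.

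The effect of IL-27 was then compared between types. Between Muller glia and microglia, 0 of 26 members were called (0.284% of 14438 genes), and 2 had an unadjusted p under 0.05. The share of all genes at that unadjusted p is not given for this comparison or for cones against rods. In microglia Mlkl was at 29.6, 23.8 and 19.2 CPM in saline control and 8.95, 14.9 and 16.9 CPM in IL-27 libraries, from 18, 11 and 8 UMIs and 5, 13 and 6 UMIs. All saline values lay above all IL-27 values, the reverse of the order of the means in Muller glia. Mlkl and Fas were below the filter in microglia alone, and without it the microglial log2FC was -0.85 for Mlkl (SE 0.44, edgeR p 0.0506, adjusted p 0.933) and -0.74 for Fas (SE 0.52, edgeR p 0.153, adjusted p 0.933). The difference between the effects was 1.98 (SE 0.48, edgeR p 0.000186, adjusted p 0.0624), with adjusted p from 0.0208 to 0.999985 over the alternatives, and it passed the threshold without IL-27 replicate 4 (2.07). Fas was at 16.3, 19.6 and 24.6 CPM in saline control and 19.0, 26.2 and 29.5 CPM in IL-27 Muller glia, and at 19.7, 6.49 and 24.0 CPM against 8.95, 12.6 and 5.64 CPM in microglia. Its difference was 1.12 (SE 0.51, edgeR adjusted p 0.780), and the groups overlapped in both types.

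Between cones and rods, 0 of 18 members were called (0.0309% of 12942 genes) and 0 had an unadjusted p under 0.05. The smallest adjusted p was 0.999992. In cones Mcl1 was at 35.3, 29.5 and 31.9 CPM in saline control and 29.5, 22.2 and 20.6 CPM in IL-27 libraries, a log2FC of -0.39 (SE 0.21, edgeR p 0.0803, adjusted p 0.999), and IL-27 replicate 4 reached the lowest saline library. Over the alternatives it ran from -0.60 without IL-27 replicate 4 to -0.25 with all retained nuclei. The 6 genes that follow free rod RNA summed to 3993 to 4218 CPM in cones of saline control and 2762 to 4043 CPM with IL-27, with 0 of 6 higher in mean after IL-27. Microglial markers in cones summed to 100 to 119 CPM in saline control and 126 to 142 CPM with IL-27 (9 of 10 higher in mean) and pericyte markers to 6.53 to 9.34 and 9.61 to 17.8 CPM (5 of 8 higher), both without overlap. The part of these in the cone values was not tested.

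In the other types the smallest unadjusted p values were those of Xiap in HC, Bid in BC and Ripk1 in RGC. Xiap in HC was at 122, 106 and 111 CPM in saline control and 83.9, 88.7 and 89.6 CPM in IL-27 libraries. The groups did not overlap, over 50 to 107 nuclei a library, and the log2FC was -0.38 (SE 0.15, edgeR p 0.0175, adjusted p 0.970). Bid in BC was at 1.6, 1.41 and 1.15 CPM in saline control and 2.02, 1.47 and 3.46 CPM with IL-27, with overlap, and its log2FC of 0.74 (SE 0.37, edgeR adjusted p 0.999981) was 0.35 without IL-27 replicate 10. Ripk1 in RGC was at 12.4, 12.4 and 10.6 CPM in saline control and 13.7, 16.8 and 14.3 CPM with IL-27. These values did not overlap either, and the log2FC was 0.36 (SE 0.19, edgeR adjusted p 0.999), or 0.23 without the removal of doublets.

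The further genes gave 295 tests of a gene in a type, with 0 called and 10 at an unadjusted p under 0.05, a share below the 4.1% of the tests over all genes. In rods they were Hrk, a BH3-only gene (log2FC 0.84, SE 0.38), and Cdkn1a, a p53 target (0.59, SE 0.27). Hrk was at 3.07, 4.25 and 3.64 CPM in saline control and 4.28, 4.96 and 9.80 CPM with IL-27, and Cdkn1a was at 5.81, 6.98 and 5.66 CPM and at 8.0, 11.6 and 8.88 CPM. In neither did the groups overlap, and the edgeR adjusted p of both was 0.999. In Muller glia it was Tlr3 (0.49, SE 0.20), with IL-27 replicate 10 highest at 81.8 CPM, and in microglia the calpain Capn2 (1.06, SE 0.45). The others were Tlr3 in BC (0.81, SE 0.32), Gsdme (0.23, SE 0.09) and Map3k7 (0.17, SE 0.07) in AC, Bnip3 (-0.84, SE 0.32) and Dffa (-0.95, SE 0.45) in HC and Bcl2l13 in RGC (0.31, SE 0.13). In cones the smallest p was that of Cyld (log2FC -0.26, SE 0.14). Between Muller glia and microglia the effects on Zbp1, a sensor upstream of Ripk3, differed by 1.18 (SE 0.37, edgeR adjusted p 0.342).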

How the data were processed

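Gene by nucleus UMI counts were deposited by the authors, who made them with Cell Ranger 9.0.1 per the submitters' processing notes (8.0.1 in the matrix headers) and listed Seurat 5.2.1; the genome build is not given in the sources used here. The counts were not normalized. A nucleus had to hold over 500 UMIs and no fewer than 200 genes, with mitochondrial counts below 5%, and 4015 called doublets were removed at an expected rate of 8%. Clusters were named from marker genes, with the members left out of the 2000 variable genes, and the sums left out 3396 nuclei whose log2 UMI count lay beyond 2 median absolute deviations.

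UMI counts summed per library and cell type were tested with edgeR 4.0.16 (quasi-likelihood test, TMM, filterByExpr with a minimum count of 10, Benjamini-Hochberg adjustment over all genes tested, threshold 0.05), with library as a block where types were compared. DESeq2 1.42.0, other normalizations, filters, nuclei and doublet rules, a 1% mitochondrial limit and leaving out each library were alternatives. Sex read from Xist as a covariate and the fit over 8 types, with 3 scalings, were chosen after seeing the data. The scripts were tested on simulated data.

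The members and lists were chosen with earlier results of these data known. Library values were given for members with an unadjusted p under 0.05 in the 4 main types, the 3 smallest p values elsewhere and members with the largest ratio of the highest type to the mean. Xiap in rods, Mcl1 in cones and the treatment values of Fas and Mlkl were shown beside these after their values were seen. The study's own edgeR fit had the detection rate as a covariate, which was not used here, since libraries were the units. Values of some further genes are not reported here.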

Additional observations from a re-analysis of the deposited data

How the results depend on the processing

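The count of members called between IL-27 and saline control was 0 in all 75 alternatives. The median log2FC of the members in rods was 0.0484 with all retained nuclei and ran from -0.0572 to 0.0279 with each library left out. In cones it was 0.00369 with DESeq2 and -0.00721 without the filter, and ran from -0.128 to -0.0367 with each library left out. In Muller glia it ran from -0.0294 to 0.105, and in microglia from -0.0284 to 0.0959, with -0.0395 under DESeq2 and -0.0250 without the filter. Members higher in Muller glia numbered 12 under the stricter filter, which tests fewer genes. In rods 12 members were higher and 4 lower over 8 types with library totals. Over all genes 8699 were higher and 3813 lower in that fit, so 69.5% of all calls were higher, and nothing is read from the member counts. For the other counts of members in this section no share over all genes is given here. Members lower in Muller glia numbered 3 with DESeq2, with library totals and over 8 types under each of 3 scalings, 2 with DESeq2 size factors and with all retained nuclei, 0 without doublet removal, and 0 to 2 with each library left out. In microglia 2 were lower over 8 types. Members whose effect differed between Muller glia and microglia numbered 0 to 1 with each library left out, the 1 being Mlkl without IL-27 replicate 4. The rod difference reversed for Pmaip1 with DESeq2 (-0.82, from 0.36), for Fas over 8 types (0.91, from -0.40, 1.14 with library totals and 0.82 with DESeq2 size factors) and without IL-27 replicate 5 (-0.66 to 0.35 with each library left out), and for Bid with DESeq2 (-0.57, from 0.10), over 8 types (-0.74, -0.45 with library totals and -0.82 with DESeq2 size factors) and without saline replicate 2 (-0.0661 to 0.68 with each library left out), and the cone difference of Bcl2l11 was 0.0598 over 8 types (0.21 with library totals and 0.0432 with DESeq2 size factors), from -0.23. The rod difference of Mcl1 was 0.22 over 8 types with library totals, from -0.40. The cause was not tested. No paired analysis was possible because saline and IL-27 libraries share no replicate number. Depth limits the members of few UMIs, above all in astrocytes, endothelial cells and pericytes.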
